A study of Mus musculus with 18 samples.

Results

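Gdf15 and 9 genes of the integrated stress response were followed in the lungs of mice given a mixture of polycyclic aromatic hydrocarbons (PAHs). The 9 genes were Atf4, Ddit3, Atf3, Trib3, Chac1, Asns, Sesn2, Ppp1r15a and Hspa5. All probes whose RefSeq accession belonged to one of the 10 genes were taken, which gave 10 of 20660 named genes and 11 of the 55681 probes on the array that are not controls. Atf4 had 2 probes and every other gene had 1. In the Cy5 channel, the brightest probe of each gene was well above background and unsaturated on all 18 arrays. The second Atf4 probe and the Cy3 channel were not checked for this. Gdf15 was chosen by its measured rise over the vehicle in these same arrays, so its values are given as a description without a test.

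The mice were adult males of the transgenic Muta Mouse strain, which carries lacZ reporter copies, and were about 12 weeks old. They received the 4PAH-Mix, made of benzo[a]pyrene (BaP), benz[a]anthracene, benzo[b]fluoranthene and chrysene, in olive oil by daily gavage for 28 days, and their lungs were taken 72 h after the last dose. The vehicle group of 5 mice had olive oil alone, the low group of 4 mice had 12.5, the medium group of 5 mice had 25 and the high group of 4 mice had 50 mg BaP equivalents/kg-bw/day. Each lung RNA was labelled with Cy5 and set against Universal Mouse Reference RNA, a pool from mouse cell lines, in Cy3, and each value below is the log2 ratio of lung to reference unless it is named as a difference. The dyes were not swapped, all 4 groups were present on each of 3 slides, and position on a slide, which went with the dose group, cannot be told apart from dose. Lung markers were high against the reference in vehicle mice, where the mean log2 ratio over 8 alveolar type 2 genes was between 5.30 and 5.43. The RNA came from tissue of the right lung lobe and not from sorted cells, so fewer cells of a type and less RNA per cell cannot be told apart.

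GDF15 is a secreted member of the transforming growth factor beta superfamily that acts on the brainstem receptor GFRAL to lower food intake, and its gene is induced both by p53 after DNA damage and by ATF4 and CHOP under cell stress. In the integrated stress response, kinases that sense amino acid shortage, endoplasmic reticulum stress, viral RNA or heme shortage phosphorylate the translation factor eIF2alpha. General translation then slows while ATF4 protein is made from its existing mRNA, and ATF4 with its partner CHOP (gene Ddit3) switches on genes for amino acid supply, feedback and cell death. Metabolites of PAHs bind DNA, and p53 responds to such damage. The comparison asked whether the stress response genes were higher in the dose groups in which Gdf15 was higher.

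The sequences around the start sites show which members carry the textbook elements of these pathways. RefSeq promoter windows of build GRCm38.p6 (250 bases before to 50 after a start) were matched by symbol for all 10 genes, with 2 windows for Gdf15. The composite element bound by ATF4 and C/EBP factors, searched on both strands as TGATGNAAN, was found in 4 of the 10 genes and in 3.954% of all 32851 windows. Below, 30 bases around each match are written along the gene's strand with the element in capitals, which reads as the reverse complement in Atf3, Trib3 and Chac1.
Atf3: cccttctcgcaCTTGCATCAccaagtccgc
Trib3: attagctcaggTTTACATCAgccgggcggg
Chac1: ccttccctgccGTTGCATCActcctgccag
Asns: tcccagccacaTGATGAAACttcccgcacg
These runs lie at chr1:191183426-191183455 on the minus strand, chr2:152344029-152344058 on the minus strand, chr2:119351037-119351066 on the plus strand and chr6:7693214-7693243 on the minus strand. Counted from the start site as +1, the elements begin at -111 in Atf3, +14 in Trib3, -194 in Chac1 and -23 in Asns.

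Hspa5 held the endoplasmic reticulum stress element, which is CCAAT and CCACG with 9 bases between and serves ATF6 and XBP1. It was in 0.1187% of all windows. Ppp1r15a held the full cyclic AMP response element TGACGTCA, found in 1.79% of all windows. The shorter TGACG, which the full element also contains, was in 7 of the 10 genes and in 20.81% of all windows. The element is again in capitals.
Hspa5: acttcaCCAATCGGAGGCCTCCACGacggg
Ppp1r15a: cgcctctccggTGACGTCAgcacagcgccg
The first run lies at chr2:34772019-34772048 on the plus strand and the second at chr7:45526262-45526291 on the minus strand. None of the motifs searched was in the windows of Gdf15, Sesn2 or Ddit3, of which Ddit3 was not called at any dose. The p53 response element was searched as 2 decamers of its consensus up to 13 bases apart with at most 1 mismatch. It was present in 0.6271% of all windows and in none of the 10 genes. The 250 bases before the start are shown for Gdf15 and Sesn2, the pair of genes with the largest rises among the 10. For Gdf15 they come from the upstream 1 of its 2 windows.
Gdf15: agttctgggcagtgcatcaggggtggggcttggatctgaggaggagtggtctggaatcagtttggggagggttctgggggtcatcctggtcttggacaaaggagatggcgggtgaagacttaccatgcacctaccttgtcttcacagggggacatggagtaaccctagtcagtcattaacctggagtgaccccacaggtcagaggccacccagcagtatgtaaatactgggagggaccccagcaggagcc
Sesn2: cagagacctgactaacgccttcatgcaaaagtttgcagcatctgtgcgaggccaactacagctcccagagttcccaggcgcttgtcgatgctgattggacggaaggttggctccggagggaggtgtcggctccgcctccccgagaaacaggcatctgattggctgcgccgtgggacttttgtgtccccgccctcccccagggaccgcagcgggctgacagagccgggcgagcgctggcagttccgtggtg
They lie at chr8:70632457-70632706 and chr4:132510457-132510706, both on the minus strand. These counts describe the letters in the windows alone.

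Gdf15 was higher at every dose than in any vehicle mouse. Its log2 ratio was -1.79, -2.37, -1.66, -1.78 and -2.24 in the vehicle mice, and 0.15, 0.06, 0.31 and -0.18 in the low group. In the medium group it was 1.13, 1.098, 0.78, 0.97 and 0.08, and in the high group 0.97, 0.82, 0.99 and 0.86. The group means differed from the vehicle by 2.05 (95% interval 1.69 to 2.42), 2.78 (2.44 to 3.12) and 2.88 (2.51 to 3.24) on the log2 scale, or 4.15-, 6.87- and 7.34-fold. These intervals do not allow for the choice of Gdf15 by this same rise and are no test of it. The raw Cy5 intensity of the probe was between 276 and 425 in vehicle mice and between 2199 and 3610 in the high group. The step from the low to the medium group was 0.73 and that from the medium to the high group 0.10 (interval -0.27 to 0.46). Mouse 15, the last of the medium group, lay within the range of the low group and below every other medium and high mouse, although its raw Cy5 intensity (2183.5) was above that of medium mouse 13 (2153).

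Sesn2 was the stress response gene that stood apart. It encodes sestrin 2, a leucine sensor that restrains mTORC1 and a target of both ATF4 and p53. Its log2 ratio was -0.86, -1.02, -0.69, -0.75 and -0.74 in vehicle mice and -0.32, -0.66, -0.31 and -0.20 in the low group. It was -0.49, -0.12, 0.02, -0.06 and -0.50 in the medium group and -0.08, -0.39, -0.10 and 0.01 in the high group. No exposed mouse was as low as any vehicle mouse, while the 3 dose groups overlapped one another. The low group differed from the vehicle by 0.44 (interval 0.19 to 0.69, limma adjusted p = 0.198). The medium group differed by 0.58 (interval 0.35 to 0.82, limma adjusted p = 0.00502) and the high group by 0.67 (interval 0.42 to 0.92, limma adjusted p = 0.00185). For a call, 1.5-fold (0.585 on the log2 scale) had to be reached along with an adjusted p no higher than 0.05. Sesn2 therefore rose at the high dose (1.59-fold) and missed the fold limit at the medium dose (1.496-fold) with its p past the threshold. For all 3 doses the two-sided exact permutation p was 0.00794, the lowest value possible with 5 against 4 or 5 mice. After adjustment over all 27 such tests (9 genes at 3 doses) it was 0.0714, with 0 of the 27 passing. Since the lowest possible p at all 3 doses still gave 0.0714, 1 gene alone could not pass. The exact test therefore cannot decide for a single gene. The difference was positive on all 3 slides at each dose, from 0.61 to 0.75 on single slides at the high dose. Slides 2 and 3 held 1 high-dose mouse each, against 2 and 1 vehicle mice. Median centring in place of loess ended the call at the high dose (difference 0.86, adjusted p = 0.424).

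Only Sesn2, 1 of the 9 stress response genes, was called at the high dose, and none was called at the low or the medium dose. Over all probes the shares called were 0.0898% (low), 0.726% (medium) and 1.2% (high). Without the fold limit, 0 of 9 passed at the low dose, 1 at the medium dose (Sesn2) and 2 at the high dose (Sesn2 and Atf3), against 0.167%, 3.54% and 4.18% of all probes. At an unadjusted p under 0.05 the counts were 1, 5 and 4 of 9, beside 8.01%, 15.3% and 15.7% of all probes. Sesn2 was also the 1 gene of the 9 whose dose group did not overlap with the vehicle group at each dose, a separation seen for 2.81%, 4.36% and 8.11% of all probes. The differences were positive for 5 and negative for 4 of the 9 genes at each dose, and their medians were 0.00, 0.08 and 0.07, beside medians over all probes of 0.00 at each dose. Under median centring 8, 7 and 7 of the 9 were positive, and over the other scalings between 4 and 7. The upper end of the 95% interval lay under the 1.5-fold limit for 7, 6 and 7 of the 9 genes in order of dose.

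**Figure D1:**
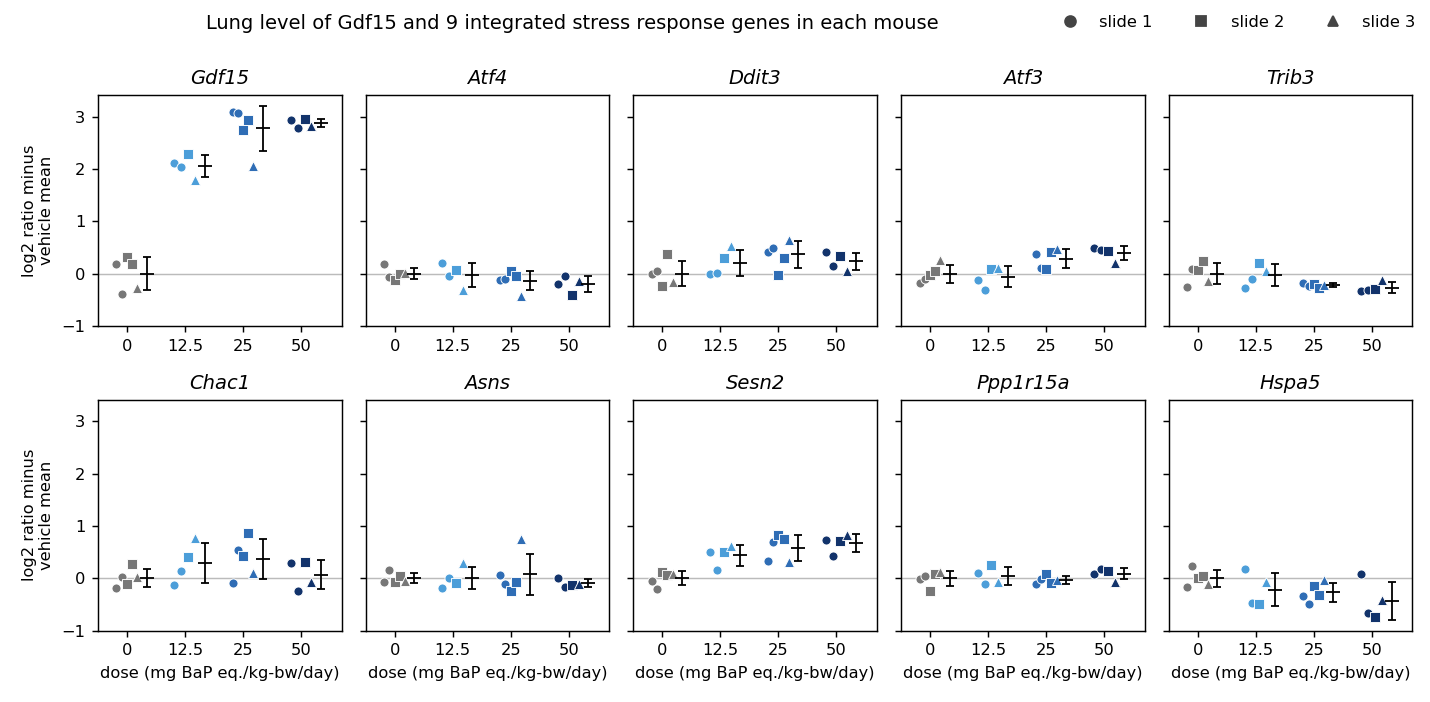
Log2 ratio of each mouse minus the mean of the vehicle mice (vertical axis) by daily dose in mg BaP equivalents/kg-bw/day (horizontal axis) for the 10 genes. Symbols are single mice with their shape giving the slide, and bars are group means ± SD (n = 5, 4, 5 and 4); Gdf15 lies between 1.78 and 3.09 above the vehicle mean in exposed mice, while no exposed mouse exceeds 0.87 for any other gene.

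The transcription factors of the pathway all stayed under the fold limit. Atf4, the central factor, which is controlled largely through translation, had a log2 ratio of 0.04, -0.21, -0.26, -0.16 and -0.13 in vehicle mice and -0.35, -0.18, -0.56 and -0.29 in high-dose mice. These groups overlapped. Its difference at the high dose was -0.20 (95% interval -0.43 to 0.03, limma adjusted p = 0.401), and its second probe gave -0.09 (-0.26 to 0.08). With median centring the first probe gave 0.03.

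Ddit3, which encodes the death-promoting factor CHOP, had values of -1.48, -1.41, -1.71, -1.10 and -1.62 in vehicle mice. They were -1.05, -0.97, -1.48, -1.16 and -0.82 in the medium group, where 3 of 5 mice lay above all vehicle mice. The difference was 0.37 at the medium dose (limma adjusted p = 0.139, interval 0.10 to 0.64) and 0.24 at the high dose (adjusted p = 0.449, interval -0.05 to 0.52).

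Atf3, a stress-induced repressor that ATF4 and p53 both can raise, had values of -1.43, -1.35, -1.27, -1.19 and -0.98 in vehicle mice. In high-dose mice they were -0.76, -0.80, -0.82 and -1.04, so that 3 of 4 lay above all vehicle mice. Its difference was -0.06 at the low dose, 0.28 at the medium dose (limma adjusted p = 0.151) and, for the high group, 0.39 (interval 0.16 to 0.62, limma adjusted p = 0.0451), which is 1.31-fold and under the fold limit. The high-dose adjusted p ran from 0.0204 to 0.146 when single mice were left out.

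Genes downstream of ATF4 showed no common direction. Trib3, a pseudokinase that feeds back on ATF4 and restrains AKT, had values of -3.09, -2.74, -2.75, -2.58 and -2.96 in vehicle mice and -3.16, -3.13, -3.12 and -2.95 at the high dose. Its difference there was -0.27 (interval -0.48 to -0.06, limma adjusted p = 0.167), and 3 of 4 high-dose mice lay below all vehicle mice. Mouse 20 was the highest of the high group at -2.95, far from the other 3.

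Chac1, which degrades glutathione and is among the genes most tightly tied to ATF4 and CHOP, had values of -2.69, -2.49, -2.62, -2.23 and -2.49 in vehicle mice. Its values spread more in the exposed groups, at -2.64, -2.36, -2.10 and -1.73 in the low and -2.59, -1.96, -2.08, -1.63 and -2.40 in the medium group. At the high dose they were -2.21, -2.75, -2.18 and -2.58. The SD was 0.18 in vehicle mice, 0.39 in the low, 0.38 in the medium and 0.28 in the high group, a spread that was not tested. The differences were 0.29 (adjusted p = 0.735), 0.37 (adjusted p = 0.299) and 0.07 (adjusted p = 0.917) by limma, with an interval at the high dose from -0.30 to 0.45, and scale normalization turned the last to -0.06.

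Asns, the asparagine synthetase whose gene answers to amino acid shortage through ATF4, was -2.44, -2.22, -2.45, -2.34 and -2.43 in vehicle mice. At the medium dose it was -2.31, -2.49, -2.63 and -2.45 in 4 mice and -1.63 in mouse 15, the mouse with the lowest Gdf15 of that group. At the high dose it was -2.37, -2.55, -2.50 and -2.49. The high-dose difference was -0.10 (interval -0.39 to 0.19, limma adjusted p = 0.825), and median centring turned it to 0.15.

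Ppp1r15a, which encodes GADD34, the feedback subunit that dephosphorylates eIF2alpha, had values between 0.12 and 0.48 in vehicle mice and between 0.29 and 0.52 in high-dose mice. Its differences were 0.04, -0.03 and 0.08, with an interval at the high dose from -0.10 to 0.27 (limma adjusted p = 0.753). Scaling by the scanner software, median centring or Cy5 alone turned the medium-dose value positive.

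Hspa5, the endoplasmic reticulum chaperone BiP, had lower means in the dose groups. Its values were 0.05, 0.47, 0.23, 0.27 and 0.11 in vehicle mice and 0.30, -0.44, -0.51 and -0.20 in high-dose mice, of which 3 lay below all vehicle mice and mouse 16 did not. In order of dose the difference was -0.22, -0.27 and -0.44 (interval at the last -0.76 to -0.12, limma adjusted p = 0.126). Without high-dose mouse 16 it was -0.61 with an adjusted p of 0.0239 by limma, which would be a call.

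**Figure D2:**
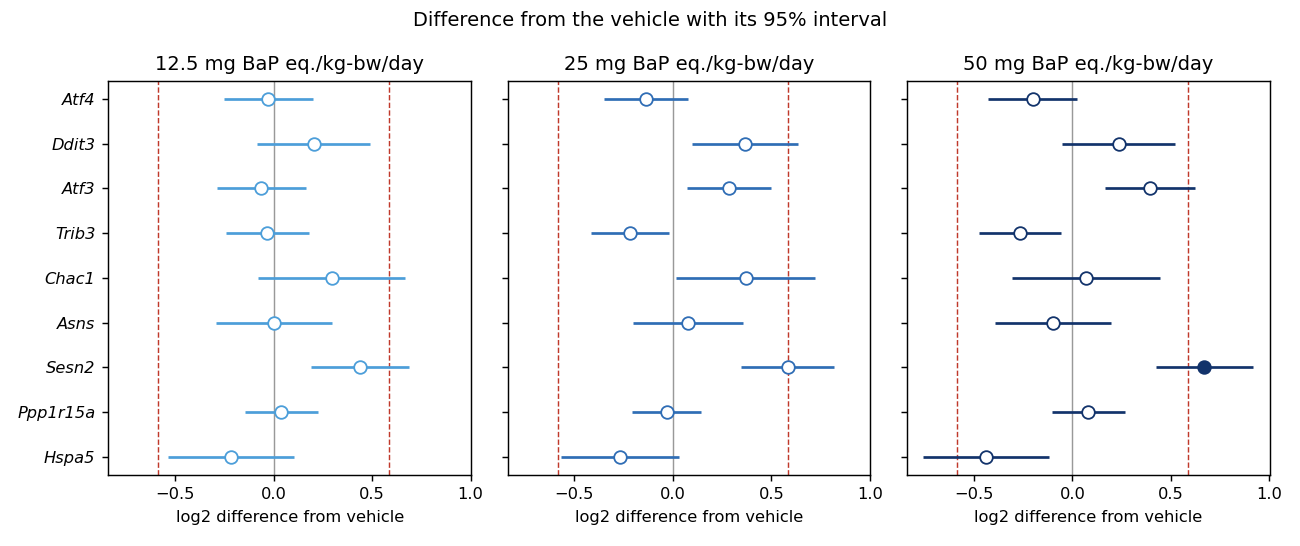
Difference of each dose group from the vehicle on the log2 scale (horizontal axis) for the 9 stress response genes, with lines for 95% limma intervals and dashed lines at 1.5-fold (0.585) in either direction. Filled circles are called and open circles are not; only Sesn2 at 50 mg BaP equivalents/kg-bw/day (0.67) is filled.

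Between dose groups none of the 9 genes was called by limma, and 1 (medium against low), 2 (high against low) and 0 (high against medium) had an unadjusted p under 0.05, beside 4.96%, 6.71% and 3.74% of all probes. Over all probes 0% were called for the medium against the low dose, 0.0449% for the high against the low dose and 0% for the high against the medium dose. The largest of the 9 differences between the high and the low dose was that of Atf3, 0.45 (interval 0.21 to 0.69, limma adjusted p = 0.292). Sesn2 was higher by 0.23 (interval -0.03 to 0.49) in the same comparison.

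Variation among mice of the same dose group is independent of the choice of Gdf15 by its dose response. Each mouse's deviation from its group mean was compared between Gdf15 and the 9 genes over 18 mice, by permutation within groups with adjustment over the 9 relations. None passed. Pearson's r ran from -0.73 for Asns (permutation p = 0.0245, adjusted p = 0.221, Spearman's rho = -0.44 with permutation p = 0.0983) to 0.46 for Atf4 (permutation p = 0.0816, adjusted p = 0.245, rho = 0.22 with permutation p = 0.418). Without medium mouse 15 and vehicle mouse 2, which were farthest from the median of Gdf15, r was -0.15 for Asns and 0.07 for Atf4, so both rested on these mice. Sesn2 had r = 0.33 (permutation p = 0.302, adjusted p = 0.679, rho = 0.10 with permutation p = 0.726), -0.20 without the same mice and 0.50 after removing slide means. It was 0.70 with median centring and 0.75 with Cy5 alone (adjusted permutation p = 0.0517 and 0.0718). With slide means removed, r was -0.55 for Asns and 0.29 for Atf4, and again none of the 9 passed. Scale normalization brought 1 relation past the threshold, that of Asns (r = -0.80, adjusted permutation p = 0.0363), and median centring turned it to 0.30.

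**Figure D3:**
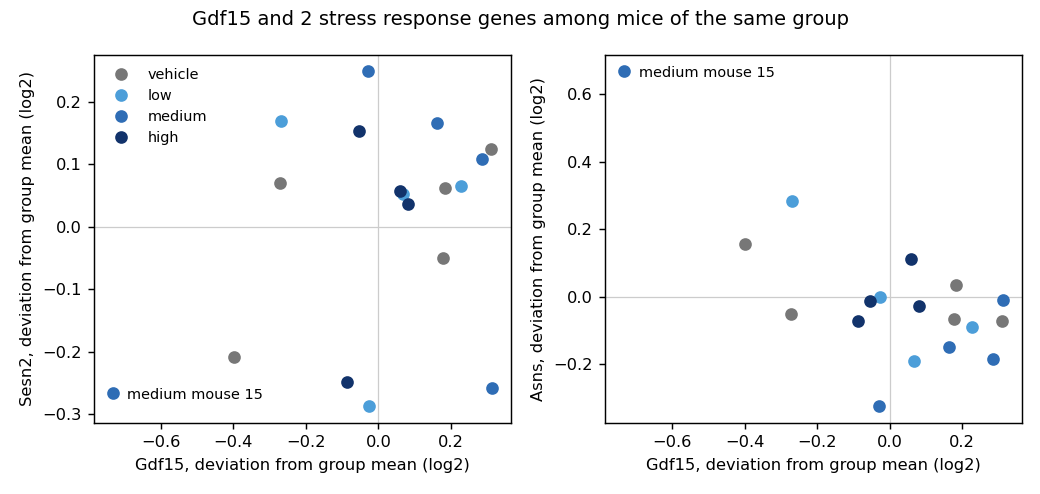
Deviation of each of the 18 mice from its group mean on the log2 scale, Gdf15 on the horizontal and Sesn2 (left) or Asns (right) on the vertical axis, coloured by group. Medium mouse 15 lies 0.73 below its group mean for Gdf15 and has the largest positive deviation for Asns.

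The genes whose level followed Gdf15 most closely over the 18 arrays were Phlda3 (Pearson's r = 0.98), Serp2 (0.97), Aen (0.96), Cdkn1a (0.95) and Exoc4 (0.95), of 14366 genes. These values share the arrays and the dose groups and are a description. Phlda3, Aen and Cdkn1a, which encodes the cell cycle inhibitor p21, are known targets of p53, Serp2 belongs to the family of stress-associated endoplasmic reticulum proteins, and Exoc4 is a subunit of the exocyst. Serp2 differed from the vehicle by 0.83, 1.20 and 1.24 in order of dose. Cdkn1a differed from the vehicle by 1.39, 2.09 and 2.47 on the log2 scale at the 3 doses. By the same measure Sesn2 stood at place 67 (0.86), Atf3 at 2271 (0.50) and Ddit3 at 2498 (0.48), while Chac1, Ppp1r15a, Asns, Atf4, Trib3 and Hspa5 lay lower, from 4154 to 13366.

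Other genes of the same stress pathways were read from lists written with earlier results of these data known. Of 47 measured ATF4 and CHOP targets outside the members, 9, 7 and 6 had an unadjusted p under 0.05 in order of dose. Over all probes these shares were 8.01%, 15.3% and 15.7%. None of the 47 was called at the low or medium dose (0.0898% and 0.726% of all probes) and 1 rose at the high dose (1.2% of all probes called). This was Tnfrsf10b, the death receptor DR5, which is also a known target of p53 (0.73, standard error 0.11, limma adjusted p = 0.000506; 0 genes with median centring and 2 with scale normalization). The median over the list was -0.01, 0.06 and -0.01 at the 3 doses. Next in size were the arginine carrier Slc7a1 (-0.50, limma adjusted p = 0.0079) and Bbc3, which encodes the death protein PUMA and is also a p53 target (0.41, limma adjusted p = 0.0152), both under the fold limit. Nupr1, a stress cofactor, was lower without passing (-0.36, limma adjusted p = 0.405).

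Of 22 genes for eIF2alpha kinases, phosphatases and the exchange factor eIF2B, none was called by limma at any dose, and 4, 5 and 8 had an unadjusted p under 0.05 (all probes 8.01%, 15.3% and 15.7%). The largest difference at the high dose was that of the eIF2B subunit gene Eif2b3 (0.41, limma adjusted p = 0.0389), followed by Eif2b5 (0.35, adjusted p = 0.057 by limma) and Impact, an inhibitor of the kinase GCN2 (0.31, adjusted p = 0.0233 by limma). None of 14 mitochondrial stress genes was called (unadjusted p under 0.05 in 0, 3 and 2), with differences at the high dose from -0.32 for the chaperone Hspd1 to 0.29 for Ucp2.

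Endoplasmic reticulum genes under ATF6 and XBP1 were mostly lower, like Hspa5. Of 30 measured genes, 26, 22 and 23 were lower in order of dose, with medians of -0.11, -0.10 and -0.14, beside 0.00 over all probes at each dose. An unadjusted p under 0.05 was reached by 9, 10 and 10 of the 30, beside 8.01%, 15.3% and 15.7% of all probes. The 1 call was Xbp1, the factor itself, which fell by 0.63 at the medium dose (limma adjusted p = 0.000612). At that dose 0.726% of all probes were called. Xbp1 differed by -0.584 at the high dose, just short of the fold limit. The number of calls was 0 at the medium dose in the authors' table, with median centring and with Cy5 alone, and 1 at the high dose with normexp, the scanner software's ratios or the slide as a block. Pdia3 and Edem1, which serve protein folding and the disposal of misfolded proteins, differed by -0.42 and -0.40 at the high dose with limma adjusted p-values of 0.0376 and 0.0216, under the fold limit.

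Targets of p53 were set beside these lists. Of 28 measured targets outside the members, 7, 12 and 12 were called higher at the low, medium and high dose and none lower. Over all probes 0.0898%, 0.726% and 1.2% were called in either direction. The medians of the list were 0.26, 0.37 and 0.41. The largest differences at the high dose were those of Cdkn1a, Ccng1 (1.68), Phlda3 (1.66), Dglucy (1.57) and Aen (1.42). Mdm2, the ubiquitin ligase that removes p53, rose by 0.71, and Bax, a death effector, by 1.24. With median centring the counts were 0, 5 and 10. These targets were partly known from earlier results of the same arrays, so their count is no independent evidence of direction.

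**Figure D4:**
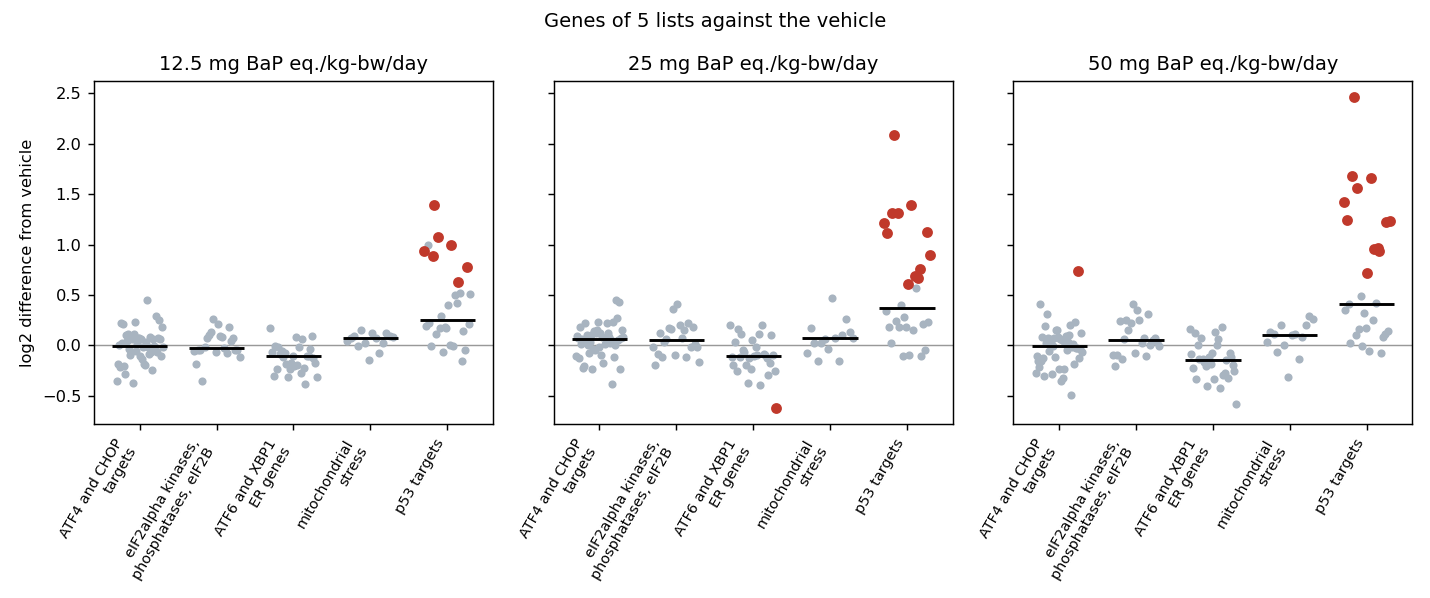
Log2 difference from the vehicle (vertical axis) of every measured gene in 5 lists at each dose, with 1 point per gene, black bars at list medians and called genes in red. Red points are almost all p53 targets (7, 12 and 12 of 28), and the ATF4 and CHOP targets have 1, Tnfrsf10b, at the highest dose.

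Around GDF15 itself, none of 5 genes for its receptor and for convertases that cut its precursor was called, and 1 had an unadjusted p under 0.05 at each dose. The receptor genes Gfral and Ret were not well above background on all arrays, and Furin differed by -0.37 at the medium dose (limma adjusted p = 0.0101), under the fold limit. Among 25 relatives in the transforming growth factor beta family, 4, 7 and 8 had an unadjusted p under 0.05, beside 8.01%, 15.3% and 15.7% of all probes. Lefty1, a Nodal antagonist, rose at the medium (0.88) and high dose (0.90, standard error 0.15, limma adjusted p = 0.000816) but was not called with median centring. Over all probes 0.726% and 1.2% were called at these doses. Tgfb3 differed by -0.49 at the high dose (limma adjusted p = 0.00154), under the fold limit. None of 24 immediate early genes was called at any dose, with an unadjusted p under 0.05 in 6, 4 and 8 (all probes 8.01%, 15.3% and 15.7%). Ier5, which both p53 and heat shock factor can raise, came closest at 0.58 at the high dose (limma adjusted p = 0.000978), and 1 gene of this list was called with normexp or the scanner software's ratios.

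Some cell type markers were called in the dose groups, where 0.0898% (low), 0.726% (medium) and 1.2% (high) of all probes were called. Of 6 fibroblast markers 4 fell at the medium and high dose (Col1a1, Col1a2, Col3a1 and Dcn), and the list mean was between -0.58 and -0.15 in vehicle mice and between -1.32 and -0.64 in high-dose mice. Of 8 cytotoxic lymphocyte markers, 2 fell at the high dose (Gzma differed by -2.25 and Ccl5 by -1.54 on the log2 scale) and Ccl5 alone at the low and medium dose, with list means from 0.59 to 1.44 in vehicle and from 0.12 to 0.45 in high-dose mice. B cell markers had 2 of 6 called higher at the medium dose, Cd79b and Ms4a1, and 0 at the low and high dose. Of 6 endothelial markers Pecam1 was called higher at the medium and high dose. At each of these 2 doses 3 of the 6 were higher and 3 lower, with list medians of 0.00 and -0.02. None of the alveolar type 1, alveolar type 2, airway, alveolar macrophage, neutrophil or cardiomyocyte markers was called at any dose. Without a call, all 8 alveolar type 2 markers were lower at the medium and high dose (medians -0.26 and -0.20), and 6 of 8 at the low dose. All 5 measured alveolar type 1 markers were lower at each dose (medians -0.13, -0.16 and -0.23). The part of these shifts in the values of the 10 genes was not tested.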

How the data were processed

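Two-colour Agilent arrays of 18 mouse lungs were analysed, 1 array per mouse. The authors deposited, for each spot, median signal intensities and local background of both channels and the scanner's log10 ratio of red to green, from Agilent Feature Extraction (version 11.0.1.1 per the file headers). The authors also deposited a table of normalized log2 ratios, which followed the values used here with a correlation between 0.995 and 0.998 per array. Here, following the study's methods, background was not subtracted, and log2 ratios of the median intensities were loess-normalized per array (limma 3.58.1, R 4.3.3). Outlier and control spots had weight 0 and were left out, and spots of a probe were averaged. The 4 groups were fitted together with limma (lmFit and eBayes), and p-values were adjusted by Benjamini and Hochberg over 55681 probes. For a call, the change had to reach 1.5-fold with an adjusted p no higher than 0.05. The study used MAANOVA, which was not run here.

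Probes were named through RefSeq (27235 probes, 20660 symbols), and the brightest probe stands for a gene. Intervals are 95% limma intervals, and relations with Gdf15 used 100000 permutations within groups. Nothing in the labels beyond one mouse per array describes further replication, so p-values measure the spread between these mice.

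The members and gene lists were chosen with earlier results of these data known. Named genes are the members, the list genes called at any dose, up to 3 more of each list with the largest high-dose difference on a probe well above background, the 5 genes most like Gdf15 over the arrays (brightest probe, well above background in at least 1 group) and Cdkn1a. Named outside this rule, after their values were seen, were Gfral, Ret and marker genes.

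Alternatives were median centring, normexp (offset 50), the authors' table, scale and Aquantile normalization, the scanner software's ratios, quantile-normalized Cy5 alone, only the 2 groups compared, the slide as a block, no fold change limit, probes well above background only, averaging a gene's probes, adjustment over the 3 doses together, each mouse left out, and, added after seeing the data, without slide 3. The fit was tested on simulated data. Between 51.5% and 61.1% of probes were well above background in Cy5 per array.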

Additional observations from a re-analysis of the deposited data

Results flagged for a closer look

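Of 44 sets of values (11 probes in 4 groups), 1 held a mouse set apart from the others by Dixon's test, which by chance would mark about 1 in 20 such sets. Trib3 in the high group was -2.95 in mouse 20, while the other 3 mice lay at -3.12 or lower.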

How the results depend on the processing

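Across the alternatives, no integrated stress response gene was called at the low dose or between dose groups. After adjustment, 0 of 27 exact permutation tests passed under any of the settings run. This cannot count against a single gene, since the lowest possible p at all 3 doses gave 0.0714 for Sesn2. At the medium dose 1 gene, Sesn2, was called in the authors' table, with the scanner software's ratios, no fold change limit and, in an alternative chosen after seeing the data, without slide 3. At the high dose 0 genes were called with median centring and 2 (Sesn2 and Atf3) with no fold change limit. Leaving out single mice, the count was between 0 and 1 at the medium dose (1 without vehicle mouse 3, 4 or 5 or medium mouse 11 or 15, in each case Sesn2) and between 1 and 2 at the high dose (2 without high mouse 16, when Hspa5 joined Sesn2). The genes of the lists outside the members numbered 7, 14 and 14 called at the 3 doses. Median centring gave 0 at the low and 5 at the medium dose, and no fold change limit gave 27 (medium) and 29 (high). The difference of Gdf15 at the high dose kept its sign and lay between 2.72 and 3.18 over the other settings and between 2.78 and 2.95 with each mouse left out. Aquantile normalization leaves ratios as they are and changed nothing by construction.

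Differences that turned sign were small and were called under neither setting. With the scanner software's ratios these were Atf4 (0.011) and Asns (-0.00364) at the low and Ppp1r15a (0.000704) at the medium dose. In the authors' table it was Atf4 at the low dose (0.031). Median centring turned Atf4 (0.11), Atf3 (0.029) and Trib3 (0.090) at the low dose, Atf4 (0.082) and Ppp1r15a (0.13) at the medium dose, and Atf4 (0.026) and Asns (0.15) at the highest. Scale normalization turned Asns at the low (-0.0075) and medium (-0.015) and Chac1 at the high dose (-0.058). Cy5 alone turned Atf4 at the low (0.14) and medium (0.071) and Ppp1r15a at the medium dose (0.020). The slide as a block turned Asns (-0.020) and averaging a gene's probes turned Atf4 (0.012), both at the low dose. Without slide 3, Atf4 (0.075) and Asns (-0.10) turned at the low and Asns (-0.10) and Ppp1r15a (0.0023) at the medium dose. With each mouse left out, ranges that crossed 0 were -0.10 to 0.072 for Atf4, -0.12 to 0.022 for Atf3, -0.11 to 0.053 for Trib3, -0.090 to 0.067 for Asns and -0.033 to 0.091 for Ppp1r15a at the low dose, -0.091 to 0.16 for Asns at the medium dose and -0.012 to 0.18 for Chac1 at the high dose. Among mice of one group, 1 gene followed Gdf15 past the threshold with scale normalization (Asns), the relation of Asns was 0.30 with median centring, that of Atf4 -0.14 without slide 3, and that of Sesn2 0.70 with median centring and 0.75 with Cy5 alone (adjusted permutation p = 0.0517 and 0.0718). The cause of these changes was not tested. Only probes well above background, only the 2 groups compared and adjustment over the 3 doses together changed no call of the 9 genes.

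Mouse numbers could not pair the groups, since each mouse has its own, and matching by slide was done with the slide as a block. The number of arrays limits the precision, and the brightest probe of each member was well above background in Cy5.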
